A study of Rattus norvegicus with 6 samples.

Results

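The heat shock proteins and their DNAJ co-chaperones were taken as the protein-coding rows of the count table whose symbols begin with Hsp90, with Hsp and a family letter (a, b, d, e or h) and a number, or with Dnaj, a class letter (a, b or c) and a number. The rule found 71 genes among the 33565 rows, namely 8 small Hsp genes, 13 Hsp70 genes including the Hsp110 branch, 3 Hsp90 genes, 2 genes of the mitochondrial chaperonin (Hsp60 and Hsp10), and 4 DNAJA, 13 DNAJB and 28 DNAJC genes. RNA-seq of mRNA-enriched RNA was available from cultured primary cardiomyocytes of Sprague-Dawley rats at postnatal day 7. The cells grew in a standard culture medium (DMEM) holding fetal bovine serum at 10% and were given vehicle (control, 3 libraries) or 100 nM progesterone, a steroid hormone (progesterone, 3 libraries), for 24 h. The labels name biological replicates but not whether they came from separate animals or cultures, so p-values measure the spread between these libraries, which may be technical.

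Heat shock proteins are molecular chaperones that bind unfolded or partly folded proteins. Hsp70 proteins hold and release clients in an ATP-driven cycle. In that cycle DNAJ proteins deliver clients and start ATP hydrolysis through their J domain, and Hsp110 proteins eject the spent ADP. Hsp90 proteins act later on kinases and steroid receptors, including the progesterone receptor, small Hsp proteins hold unfolding clients without ATP, and the Hsp60/Hsp10 chamber folds proteins inside mitochondria. Heart muscle carries several small Hsp proteins at its sarcomeres. Many of these genes are induced by the transcription factor HSF1 through heat shock elements, and those of the endoplasmic reticulum (ER) through ER stress elements.

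The libraries held 21156793 to 25376220 counts, and no library stood apart within its group (Pearson r of log2 CPM 0.988 to 0.990 within groups). Cardiomyocyte markers were abundant in every library. Their summed level was 20828 to 21279 CPM (counts scaled to TMM-adjusted library size) in the controls and 22420 to 25440 CPM with progesterone. Of 12 tested markers, 5 rose and 5 fell. Markers of other cells were read too. Smooth muscle and pericyte markers rose in 10 of 11 (summed 3495 to 3976 against 6667 to 7166 CPM) and fibroblast markers in 5 of 9, with 3 lower (27517 to 28606 against 36955 to 39916 CPM). Leukocyte markers rose in 5 of 7, with 1 lower (48.0 to 66.9 against 170.4 to 193.6 CPM), and endothelial markers in 2 of 8, with 3 lower (167 to 217 against 133 to 181 CPM). Over all 15075 genes tested, 31.2% were called higher and 31.8% lower at an adjusted p under 0.05 in edgeR's quasi-likelihood test. No marker with a row in the table was at 0 in all libraries. These marker levels moved with the groups in which the chaperone genes are compared below, and their part in the chaperone results was not tested. In such bulk samples, fewer cells of a type and less RNA per cell cannot be told apart.

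The promoter sequences below show which of the leading chaperone genes hold the classical stress elements, since these are the genes around which the values that follow are arranged. RefSeq promoters (GRCr8, 250 bases before to 50 after the annotated start) were matched by symbol for 56 of the 71 genes. The 3-unit heat shock element (GAANNTTCNNGAA or, on the other strand, TTCNNGAANNTTC) was found in 5 of the 56, against 0.736% of 27457 promoters. The 5 are Hsph1, Hspa8, Dnaja1 and the pair Hspd1 and Hspe1. The element is in capitals in each stretch, and positions are counted from the annotated start.
Hsph1 (chr12:10427292-10427367, + strand, -76 to -1): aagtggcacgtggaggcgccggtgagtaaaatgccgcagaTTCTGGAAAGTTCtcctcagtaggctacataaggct
Dnaja1 (chr5:60638405-60638433, + strand, 2 to 30 after the start): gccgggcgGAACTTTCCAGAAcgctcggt
Hspa8 (chr8:50080264-50080511, + strand, -250 to -3): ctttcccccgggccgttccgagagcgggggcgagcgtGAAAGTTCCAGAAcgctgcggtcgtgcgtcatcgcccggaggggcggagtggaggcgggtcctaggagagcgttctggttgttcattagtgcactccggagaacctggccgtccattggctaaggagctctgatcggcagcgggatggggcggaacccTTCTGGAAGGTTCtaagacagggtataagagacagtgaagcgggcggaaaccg
Hspe1 (chr9:64084222-64084319, + strand, -105 to -8): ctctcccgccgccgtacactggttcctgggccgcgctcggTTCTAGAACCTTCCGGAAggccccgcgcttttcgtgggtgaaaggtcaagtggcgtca

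Hspe1 and Hspd1 are divergent neighbours, and the capitals of the Hspe1 stretch, which are 2 overlapping matches, lie at -65 to -48 of Hspe1 and at -242 to -225 of Hspd1 on the other strand. Hspa8 has matches at -213 to -201 and at -55 to -43, Hsph1 at -36 to -24, and Dnaja1 at 10 to 22 past its annotated start. The ER stress element (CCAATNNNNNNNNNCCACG or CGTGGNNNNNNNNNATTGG, a motif chosen after the values were seen) was found in 3 of the 56, against 0.0765% of the 27457 promoters. The 3 are Hspa5 and Hsp90b1, the main Hsp70 and Hsp90 of the ER, and Dnajc3, an ER co-chaperone.
Hspa5 (chr3:38452933-38453015, + strand, -83 to -1): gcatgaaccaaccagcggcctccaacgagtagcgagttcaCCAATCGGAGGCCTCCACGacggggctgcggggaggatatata
Hsp90b1 (chr7:23012307-23012509, - strand, -216 to -14): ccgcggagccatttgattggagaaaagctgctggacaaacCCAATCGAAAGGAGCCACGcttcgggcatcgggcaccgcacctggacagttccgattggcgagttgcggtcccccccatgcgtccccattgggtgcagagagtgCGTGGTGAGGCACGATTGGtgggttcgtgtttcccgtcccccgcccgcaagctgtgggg
Dnajc3 (chr15:102432494-102432592, + strand, -173 to -75): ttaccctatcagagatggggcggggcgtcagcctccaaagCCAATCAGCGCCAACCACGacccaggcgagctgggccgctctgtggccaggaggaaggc

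Progesterone and control libraries differed in 40 of the 65 chaperone genes that passed the filter on low counts, at an adjusted p under 0.05 in edgeR's quasi-likelihood test. Of these, 21 were higher and 19 lower with progesterone. The background was as high, since 63% of all 15075 genes tested were called, 31.2% higher and 31.8% lower, so the number of calls is no result about chaperones. The median log2 fold change was 0.00 over the chaperone genes and 0.00 over all genes tested. Changes of at least 1.5-fold were called for 7 higher and 8 lower chaperone genes, against 13.1% of all genes higher and 15.9% lower. The groups did not overlap in CPM for 43 of the 65, against 68.6% of all genes. The remaining 6 genes were too low to test. Dnajb8 and Dnajc5g had no count in any library, where 3 counts over the 6 libraries would be 0.0219 CPM, and Hspb9, Dnajb7, Dnajc5b and Dnajc6 had at most 12 counts in a library.

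**Figure D1:**
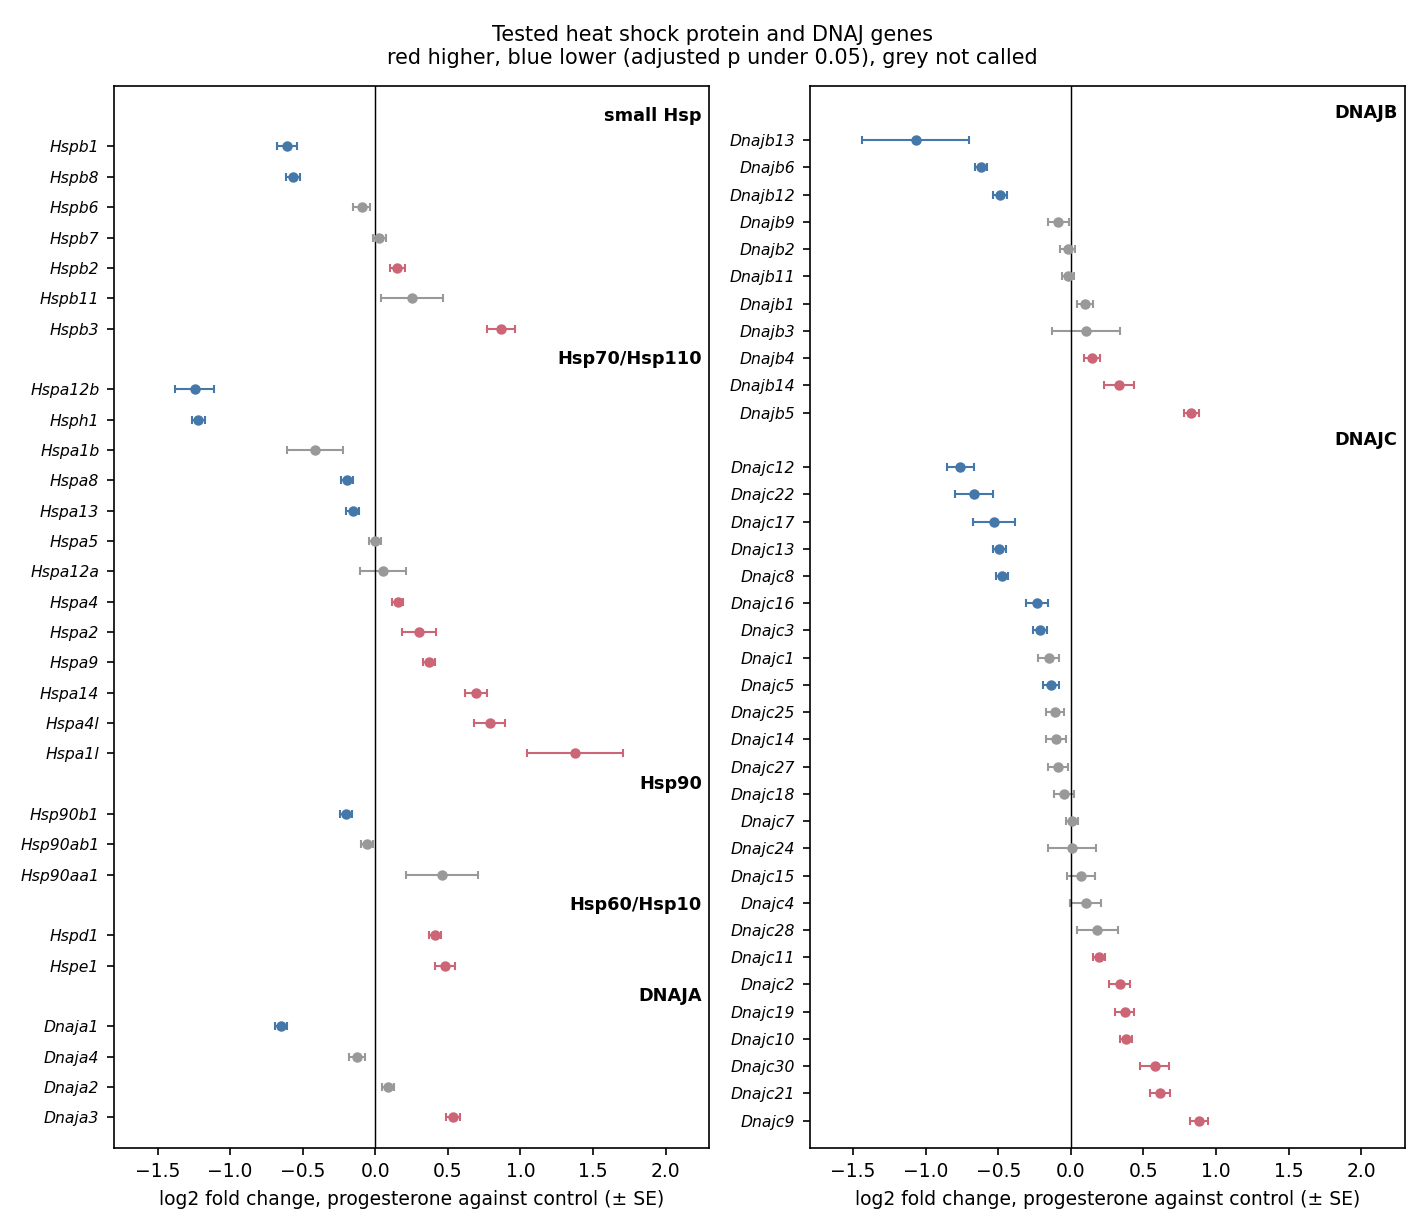
Fitted log2 fold change (progesterone against control, ± SE, x axis) of each of the 65 tested genes, by family. Red points are the 21 genes called higher, blue points the 19 called lower and grey points the 25 not called. Every family with more than 3 tested genes holds calls in both directions.

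The Hsp110 branch, whose members eject ADP from Hsp70, moved apart. Hsph1 (Hsp105, chromosome 12, 6322668 to 6341902, in the rat build of the count table, which is not named) was read at 82.3, 81.4 and 80.9 FPKM (fragments scaled to transcript length and library size, as deposited) in the controls and at 33.6, 34.3 and 36.9 FPKM with progesterone. The groups lay far apart, and every progesterone library was below every control. Hsph1 fell by 1.22 ± 0.04 (SE) on the log2 scale, or 2.33-fold (adjusted p = 2.2e-12). Hspa4 (Apg-2), the most abundant of the 3 with progesterone, rose slightly, from 74.0, 75.0 and 73.8 to 83.2, 81.3 and 83.0 FPKM (log2 fold change 0.15 ± 0.04, adjusted p = 0.0027). Hspa4l (Apg-1) was low but rose 1.73-fold, from 1.48, 1.33 and 1.43 to 2.38, 2.61 and 2.35 FPKM (0.79 ± 0.11, adjusted p = 1.2e-05). The ratio of Hsph1 to Hspa4 in FPKM was 1.11, 1.09 and 1.10 in the control libraries and 0.404, 0.422 and 0.445 in the progesterone libraries.

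Among the Hsp70 genes themselves, the main ones of the cytosol, mitochondria and ER had different values. Hspa8 (Hsc70), the constitutive cytosolic Hsp70, was read at 407, 399 and 410.2 FPKM in the controls and at 341, 363 and 357 FPKM with progesterone. The groups did not overlap, but the fall was small, at a log2 fold change of -0.20 ± 0.04 (adjusted p = 0.00070). Hspa9 (mortalin), the Hsp70 of mitochondria, rose 1.29-fold, from 138, 138 and 139.5 to 177, 187 and 173 FPKM (0.37 ± 0.04, adjusted p = 1.5e-06), and the ratio of Hspa9 to Hspa8 in FPKM moved from 0.341 ± 0.0043 to 0.506 ± 0.0187 (SD, n = 3). Hspa5 (BiP), the Hsp70 of the ER, had overlapping groups, at 379, 373 and 359 FPKM against 367, 380.1 and 360.3 FPKM (log2 fold change -0.00 ± 0.04, adjusted p = 0.96). Hspa13, a second Hsp70 of the ER, was called lower (-0.16 ± 0.05, adjusted p = 0.0090), a call lost with upper quartile scaling (-0.06, adjusted p = 0.271) and without progesterone replicate 1 (-0.12, adjusted p = 0.054).

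The heat-inducible Hsp70 was hardly read. The Hspa1b row held 70, 67 and 60 counts in the controls and 48, 42 and 45 with progesterone, about 1 FPKM (-0.41 ± 0.19, adjusted p = 0.072; called lower by limma on log2 of FPKM plus 1, -0.20, adjusted p = 0.0319). It lies on chromosome 20 (4877324 to 4879779) inside the rows of the MHC class I genes RT1-CE7 and RT1-CE4, on the same strand. Their log2 fold changes were -5.60 and -4.64, and they held 2071% and 1739% of its counts. Whether the counting lost or shared reads of the Hspa1b row was not tested, so its few counts give no settled level of this gene. A row described as heat shock 70 kDa protein 1A held at most 4 counts in a library. Hspa1l, a neighbour expressed mainly in testis, had 16, 12 and 13 counts in the controls and 41, 35 and 21 with progesterone, and was called higher (1.37 ± 0.33, adjusted p = 0.0019).

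Other, less abundant Hsp70 relatives were called as well. Hspa14, which assists folding at the ribosome, rose 1.62-fold, from 12.7, 13.4 and 10.7 to 20.4, 19.4 and 19.7 FPKM (0.69 ± 0.08, adjusted p = 1.2e-06). Dnajc2 (zuotin), its J-domain partner on the ribosome, also rose, from 15.5, 12.7 and 13.9 to 18.1, 18.3 and 16.8 FPKM (0.34 ± 0.07, adjusted p = 0.00078). Hspa12b, a distant relative known from endothelial cells, fell 2.37-fold, from 6.47, 7.23 and 7.56 to 2.32, 3.58 and 3.06 FPKM (-1.24 ± 0.14, adjusted p = 3.1e-06). In the same libraries the endothelial marker Tek fell from 29.0 to 8.03 CPM while Flt1 rose from 18.9 to 38.6 CPM (both markers picked for mention after their values were seen), and their part in the fall of Hspa12b was not tested. Hspa2 was called higher (0.30 ± 0.12, adjusted p = 0.036) although its groups overlapped, and the call was lost in 7 of 15 alternative settings, namely DESeq2 (adjusted p = 0.0723), both limma fits (adjusted p = 0.065 and 0.0651) and the fits without control replicate 2 (0.26) or 3 (0.21) or progesterone replicate 2 (0.24) or 3 (0.29), the last 4 at adjusted p from 0.0923 to 0.15. Hspa12a was not called (0.05 ± 0.16, adjusted p = 0.79).

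**Figure D2:**
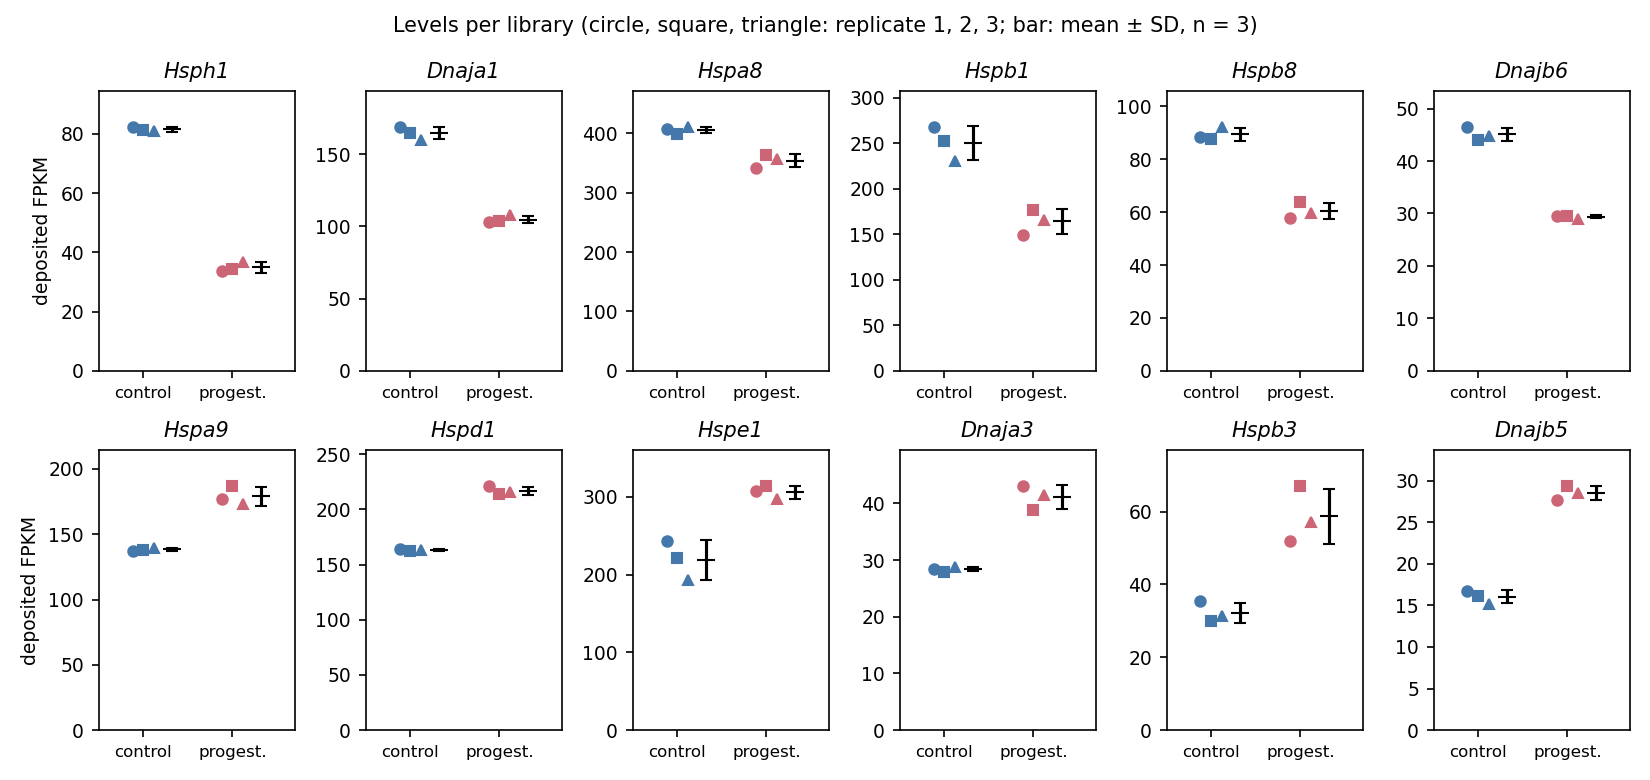
Deposited FPKM (y axis, from 0) of 12 genes in each library, by group. Symbols are libraries and the black bar is the mean ± SD of 3. The upper row holds genes that fell, such as Hsph1 from 80.9 to 82.3 FPKM in the controls to 33.6 to 36.9 FPKM with progesterone. The lower row holds genes that rose. All 12 were picked from the called genes, and the lack of overlap between groups in every panel goes with that choice. In CPM, the groups did not overlap for 43 of the 65 tested chaperone genes and 68.6% of all genes tested.

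The mitochondrial chaperonin rose as a pair. Hspd1 (Hsp60) was read at 164, 163 and 163 FPKM in the controls and at 221, 214 and 216 FPKM with progesterone, a 1.33-fold rise (0.41 ± 0.04, adjusted p = 1.9e-07). Hspe1 (Hsp10), its lid, was read at 244, 222 and 192 FPKM and then at 307, 313 and 297 FPKM, a 1.4-fold rise (0.48 ± 0.07, adjusted p = 0.00012). The controls spread more for Hspe1 than for Hspd1, and every progesterone library was above every control for both genes. The row of Hspe1 is only 267 bases long, and a per-length level depends on that length. Both share the divergent promoter printed above, and the ratio of Hspe1 to Hspd1 in FPKM was 1.34 ± 0.155 in the controls and 1.41 ± 0.0489 with progesterone (SD, n = 3), which differ by less than the spread between the control libraries.

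Some DNAJ genes of mitochondria rose as well. Dnaja3 (Tid1), the J-domain partner of Hspa9, rose 1.45-fold, from 28.4, 28.0 and 28.7 to 43.0, 38.9 and 41.5 FPKM (0.54 ± 0.05, adjusted p = 8.7e-08). Dnajc19, part of the protein import motor and linked to a dilated cardiomyopathy in humans, rose 1.29-fold (0.37 ± 0.07, adjusted p = 0.00018), Dnajc30 1.49-fold (0.58 ± 0.10, adjusted p = 0.00012) and Dnajc11, a partner of the cristae-organising complex, 1.14-fold (0.19 ± 0.04, adjusted p = 0.0011). Dnajc15, a second import motor subunit, Dnajc4 and Dnajc28 were not called, at log2 fold changes of 0.07 ± 0.10, 0.10 ± 0.11 and 0.18 ± 0.14. In all, 7 of the 10 genes assigned to mitochondria rose and none fell, and their median log2 fold change was 0.37, beside 31.2% of all genes tested higher and a median of 0.00. The same count was obtained under all scalings, filters and tests tried and with any 1 library left out. The rows of Dnajc19 and Dnajc30 overlap those of Fxr1 and, by 16 bases, Bud23, on the opposite strand. Fxr1 and Bud23 held 410% and 192% of the counts of these rows, and their log2 fold changes were -0.09 and 0.52.

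Related mitochondrial factors outside the family moved in both directions. Of 8 tested genes on the list of other small Hsp and mitochondrial chaperones, 4 were higher and 1 lower, beside 31.2% and 31.8% of all genes. Among the 4 higher was the small Hsp gene Cryab, given below, so the count is not one of mitochondrial factors alone. Trap1, the mitochondrial Hsp90, rose from 75.9 ± 4.61 to 108 ± 5.53 CPM (0.52 ± 0.05, adjusted p = 4.8e-07) and Lonp1, a matrix protease, rose by 0.39 ± 0.04 on the log2 scale (adjusted p = 4.3e-07). Clpx, which unfolds proteins for a second protease, fell (-0.28 ± 0.05, adjusted p = 0.00010), and the Hspa9 exchange factors Grpel1 and Grpel2 had values of 0.09 ± 0.04 and 0.03 ± 0.06 and were not called; both were picked for mention after their values were seen.

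**Figure D3:**
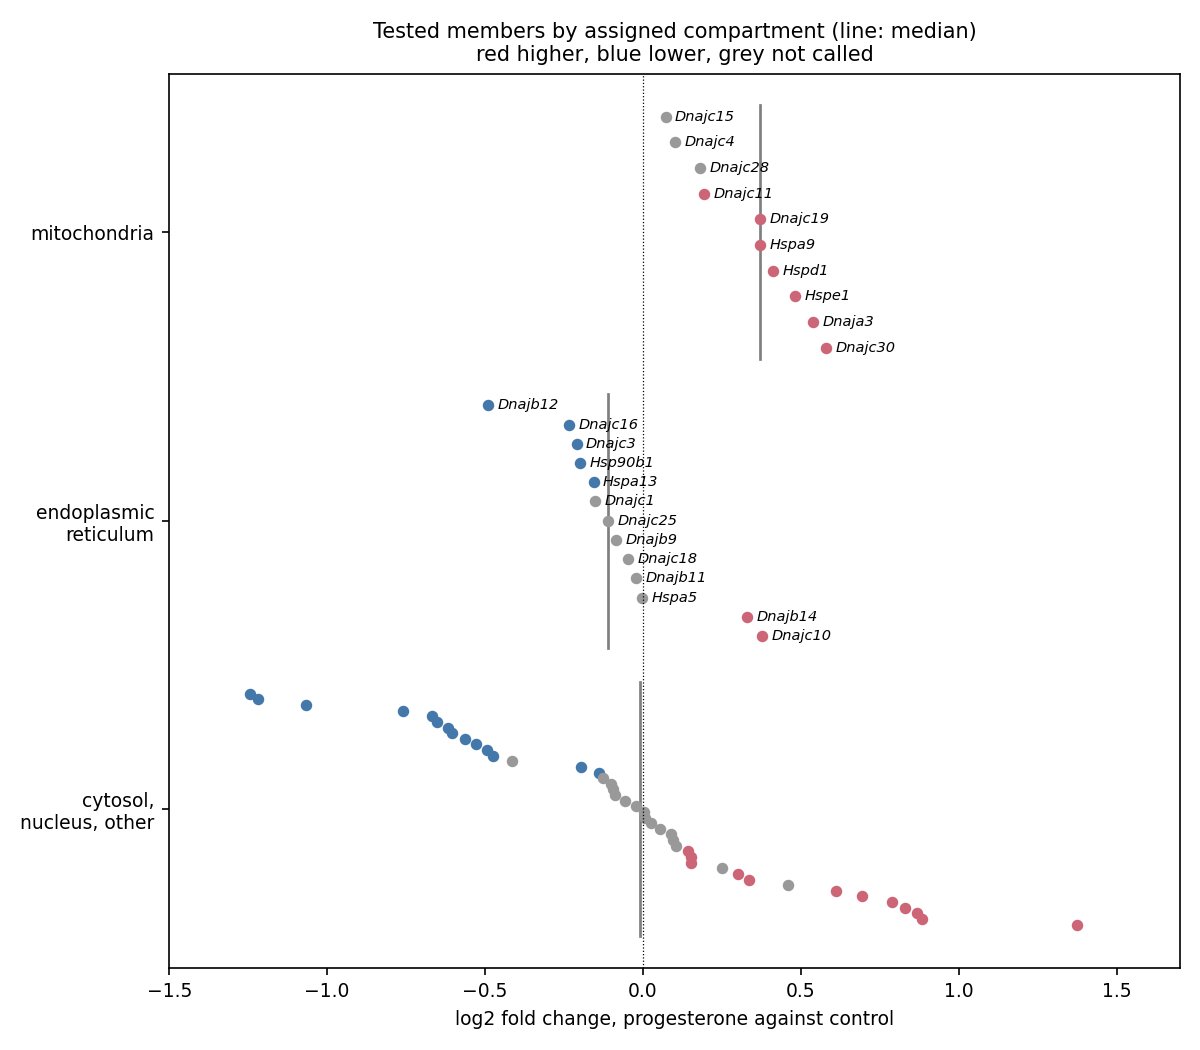
Log2 fold change (x axis) of the 65 tested genes by the compartment assigned to each from textbook knowledge, with a grey line at the median. All 10 mitochondrial genes lie right of 0, with 7 called higher (red), while the 13 ER genes have 5 called lower (blue) and 2 called higher, and the other 42 spread from -1.24 to 1.37.

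Small Hsp genes moved both ways, with 2 of 7 tested higher and 2 lower, beside 31.2% and 31.8% of all genes. The count higher was 1 where the call of Hspb2 was lost, and Hspb6 and Hspb7 gained calls in other settings, given below. Hspb1 (Hsp27), which holds unfolding proteins and caps actin, fell 1.52-fold, from 268, 252 and 230.3 to 149.5, 177 and 166 FPKM (-0.61 ± 0.07, adjusted p = 2.4e-05). Hspb8 (Hsp22) fell 1.48-fold, from 88.5, 87.5 and 92.1 to 57.7, 63.8 and 59.6 FPKM (-0.56 ± 0.05, adjusted p = 4.0e-08). No progesterone library reached the lowest control for either gene. Bag3, which binds Hspb8 and Hsp70 in the chaperone-assisted autophagy of muscle, fell as well, from 138 ± 2.28 to 80.4 ± 3.16 CPM (-0.78 ± 0.04, adjusted p = 3.9e-10).

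The other small Hsp genes were higher or not called. Hspb3 rose 1.82-fold, from 35.4, 30.0 and 31.3 to 52.0, 66.9 and 57.2 FPKM (0.87 ± 0.09, adjusted p = 7.6e-06). Hspb7 (cvHsp), the cardiovascular small Hsp, had overlapping groups, at 240.3, 235 and 239 FPKM against 232, 258 and 237 FPKM (0.03 ± 0.05, adjusted p = 0.63), and was called higher with upper quartile scaling (0.12, adjusted p = 0.0244). Hspb6 (Hsp20) was not called either (-0.09 ± 0.06, adjusted p = 0.19), except lower without progesterone replicate 2 (-0.17, adjusted p = 0.0066), nor was Hspb11, which despite its symbol is a subunit of intraflagellar transport (0.25 ± 0.21, adjusted p = 0.32). Hspb2, the partner of Hspb3, rose from 162, 148 and 148 to 165, 178 and 166 FPKM (0.15 ± 0.05, adjusted p = 0.014), a call lost without control replicate 2 (0.13, adjusted p = 0.069) or 3 (0.13, adjusted p = 0.051) or progesterone replicate 2 (0.12, adjusted p = 0.059). Its row on chromosome 8 (55176847 to 55177818) lies 470 bases from that of Cryab (55178289 to 55182545), which encodes alpha-B crystallin and points the other way. Cryab rose from 617 ± 23.0 to 731 ± 37.0 CPM (0.25 ± 0.05, adjusted p = 0.00028).

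Of the 3 Hsp90 genes, 1 was called, beside 63% of all genes. Hsp90ab1, the constitutive cytosolic Hsp90, had the highest per-length level of the 71 genes, at 566, 546 and 537 FPKM in the controls and 534, 538 and 510.1 FPKM with progesterone. The groups overlapped and the change was not called (-0.06 ± 0.04, adjusted p = 0.24). Hsp90b1 (Grp94), the Hsp90 of the ER, fell from 314, 307 and 297 to 262, 276 and 261 FPKM (-0.20 ± 0.04, adjusted p = 0.00070), with no overlap. The Hsp90aa1 row held only 33 to 64 counts in the controls and 49 to 84 with progesterone (0.46 ± 0.25, adjusted p = 0.12), and it lies within the row of Dync1h1 on the opposite strand. A separate row of chromosome 6 described as HSP 90-alpha (135107271 to 135112775) held 630, 626 and 1026 counts in the controls and 394, 419 and 603 with progesterone (-0.58 ± 0.31, adjusted p = 0.18). In that separate row replicate 3 was the highest of each group and the groups overlapped, and neither row gives a settled level of the inducible Hsp90. Rows described as similar to Hspa8 also held reads, 2446, 2207 and 2207 counts in the controls for the largest, and its log2 fold change of -0.19 ± 0.05 was close to that of Hspa8, and whether the counting divided reads between copies was not tested.

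Co-chaperones of Hsp90, from a list of 17, were higher in 6 and lower in 5, beside 31.2% and 31.8% of all genes, and 10 were higher with upper quartile scaling. The immunophilin Fkbp4, which sits in steroid receptor complexes and is also known as an HSF1 target, rose (0.26 ± 0.04, adjusted p = 0.00013), as did the phosphatase Ppp5c (0.31 ± 0.04, adjusted p = 9.4e-06). Chordc1 fell (-0.33 ± 0.05, adjusted p = 1.2e-05), and so did Unc45b, the myosin-folding partner of Hsp90 in striated muscle, from 159 ± 0.971 to 136 ± 7.02 CPM (-0.23 ± 0.04, adjusted p = 0.00037). Fkbp5, picked for mention after its values were seen, also fell, from 26.8 ± 0.991 to 20.6 ± 1.90 CPM (-0.38 ± 0.08, adjusted p = 0.00047).

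The DNAJA genes, which pair with Hsp70 in general folding, split. Dnaja1 (Hdj2), the most abundant in the controls, fell 1.57-fold, from 169, 165 and 160.1 to 103, 104 and 108 FPKM (-0.65 ± 0.04, adjusted p = 1.9e-09), while Dnaja2 was read at 87.2, 87.8 and 88.4 FPKM in the controls and 91.2, 95.1 and 93.6 FPKM with progesterone and was not called (0.09 ± 0.04, adjusted p = 0.064). The ratio of Dnaja1 to Dnaja2 in FPKM moved from 1.88 ± 0.0627 to 1.12 ± 0.0313 (SD, n = 3). Dnaja4, found mainly in muscle, was not called (-0.13 ± 0.05, adjusted p = 0.053). Both uncalled genes had groups that did not overlap, and each was called under some settings, Dnaja2 higher with upper quartile scaling (0.19, adjusted p = 0.00074) and Dnaja4 lower with library size scaling (-0.14, adjusted p = 0.030). Without progesterone replicate 1 Dnaja2 was called higher (0.11, adjusted p = 0.0451), and without progesterone replicate 2 Dnaja4 was called lower (-0.17, adjusted p = 0.0193).

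Among 11 tested DNAJB genes, 3 were higher and 3 lower, beside 31.2% and 31.8% of all genes. Dnajb6, a suppressor of protein aggregation that sits at the Z-disc, fell 1.53-fold, from 46.5, 44.1 and 44.8 to 29.6, 29.6 and 29.0 FPKM (-0.62 ± 0.04, adjusted p = 4.0e-09). Dnajb5, known as a redox partner of the histone deacetylase HDAC4 in heart muscle, rose 1.78-fold, from 16.7, 16.2 and 15.2 to 27.7, 29.3 and 28.5 FPKM (0.83 ± 0.05, adjusted p = 6.7e-10). Dnajb1 (Hsp40), the heat-inducible partner of Hsp70, had overlapping groups, at 32.1, 32.0 and 28.9 FPKM against 32.6, 35.0 and 31.7 FPKM (0.10 ± 0.05, adjusted p = 0.13), and was called higher with upper quartile scaling (0.19, adjusted p = 0.0048). Dnajb4 rose little (0.14 ± 0.05, adjusted p = 0.029), and that call was lost in 8 of 15 alternative settings, among them DESeq2 (0.14, adjusted p = 0.0705) and each of 5 fits without 1 library, all but that without progesterone replicate 3 (0.09 to 0.15, adjusted p from 0.0503 to 0.133). Dnajb13, a sperm axoneme protein under 1 CPM, was called lower from 7 to 28 counts a library (-1.07 ± 0.37, adjusted p = 0.020). The call was lost without control replicate 1 (-0.93) or 3 (-0.95) or progesterone replicate 2 (-0.90), at adjusted p from 0.0705 to 0.0791. DESeq2 did not call Dnajb13 either (-1.08, adjusted p = 0.0966). Dnajb2 and Dnajb3 were not called (-0.02 ± 0.05 and 0.11 ± 0.24).

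The DNAJC genes, which serve single tasks in many compartments, were higher in 7 and lower in 8 of 25 tested, beside 31.2% and 31.8% of all genes. Dnajc9, a histone chaperone, rose 1.84-fold, from 24.7, 23.7 and 20.8 to 44.6, 40.9 and 42.0 FPKM (0.88 ± 0.06, adjusted p = 7.1e-09). Dnajc21, which acts in the making of ribosomes, rose 1.53-fold, from 9.08, 9.25 and 8.62 to 13.2, 13.8 and 14.1 FPKM (0.61 ± 0.07, adjusted p = 1.4e-06). Both sat well above the controls in every progesterone library.

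The DNAJC genes that fell act in splicing, endosomes and other places. Dnajc8, a splicing factor with the highest per-length level of the class in the controls, fell 1.39-fold, from 65.4, 66.4 and 67.3 to 45.9, 48.7 and 48.6 FPKM (-0.47 ± 0.04, adjusted p = 1.5e-07). Dnajc13 (RME-8), which acts in endosomal sorting, fell 1.41-fold, from 29.3, 29.2 and 31.5 to 20.9, 21.4 and 21.6 FPKM (-0.49 ± 0.04, adjusted p = 9.7e-08). Dnajc12, a partner of the aromatic amino acid hydroxylases, fell 1.69-fold, from 12.9, 11.7 and 11.8 to 7.25, 7.04 and 7.17 FPKM (-0.76 ± 0.09, adjusted p = 3.5e-06). Dnajc22 fell 1.59-fold (-0.67 ± 0.13) and Dnajc17, a second splicing factor, 1.44-fold (-0.53 ± 0.15), though the row of Dnajc17 overlaps another on the opposite strand whose log2 fold change was -1.46.

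Dnajc7, a co-chaperone of both Hsp70 and Hsp90, ranked next to Dnajc8 in FPKM in the controls and had overlapping groups, at 52.2, 52.7 and 51.9 FPKM against 54.1, 52.2 and 50.8 FPKM (0.00 ± 0.04, adjusted p = 0.93; 0.10 and adjusted p = 0.0446 with upper quartile scaling). Dnajc5 (cysteine string protein), which chaperones exocytosis, was barely called (-0.14 ± 0.06, adjusted p = 0.044), and the call was lost in 6 of 15 alternative settings, among them without control replicate 2 (-0.13) or 3 (-0.14) or progesterone replicate 1 (-0.11) or 3 (-0.13), at adjusted p from 0.0753 to 0.134. The other uncalled genes that were assigned to neither the ER nor mitochondria were Dnajc14, Dnajc24 and Dnajc27. They had log2 fold changes of -0.10 ± 0.07, 0.01 ± 0.16 and -0.09 ± 0.07, and Dnajc14 was called lower without control replicate 3 (-0.18, adjusted p = 0.0224).

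The genes of the ER changed by under 1.5-fold in the calls made. Of the 13 tested genes assigned to the ER, Hspa5, Hspa13 and Hsp90b1 included, 5 were lower and 2 higher. Beside them, 31.8% of all genes tested were lower and 31.2% higher. The share lower was near the background and the share higher was under it, in few genes. Their median log2 fold change was -0.11, beside 0.00 over all genes tested. With upper quartile scaling 3 were lower. Dnajb12, an ER membrane protein that helps degrade misfolded clients, fell 1.4-fold, from 26.8, 25.4 and 27.5 to 19.1, 19.4 and 18.3 FPKM (-0.49 ± 0.05, adjusted p = 2.5e-07). Dnajc10 (ERdj5), a disulfide reductase, rose 1.3-fold, from 33.8, 31.7 and 32.3 to 42.3, 42.0 and 42.6 FPKM (0.38 ± 0.04, adjusted p = 1.0e-06). Dnajb14, a relative of Dnajb12, was called higher (0.33 ± 0.10, adjusted p = 0.0096), but its row encloses that of the histone gene H2afz, which held 1620% of its counts and had a log2 fold change of 0.84.

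The 3 genes with an ER stress element in their promoters did not move as 1 group. Dnajc3 (p58IPK), an inhibitor of the stress kinase PERK, fell from 42.2, 39.8 and 38.7 to 34.4, 35.7 and 34.1 FPKM (-0.21 ± 0.05, adjusted p = 0.0012), close to the -0.20 of Hsp90b1, while Hspa5 was at -0.00. Dnajb11 (ERdj3) and Dnajb9 (ERdj4), partners of Hspa5, were not called (-0.02 ± 0.04 and -0.09 ± 0.07). Dnajc16 was called lower (-0.23 ± 0.08, adjusted p = 0.014), a call lost with upper quartile scaling, with DESeq2 and without control replicate 3 (-0.20, adjusted p = 0.054). Dnajc1, Dnajc18 and Dnajc25 were not called, at -0.15 ± 0.07, -0.05 ± 0.07 and -0.11 ± 0.06, though Dnajc1 was called lower without control replicate 3 (-0.19, adjusted p = 0.0465).

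Of 16 other ER folding factors on the list, 7 were lower and 3 higher, beside 31.8% and 31.2% of all genes, and the count higher was 6 with upper quartile scaling and 5 without progesterone replicate 2. P4hb, the main protein disulfide isomerase, fell from 1954 ± 80.3 to 1219 ± 34.4 CPM (-0.68 ± 0.04, adjusted p = 2.3e-09), Pdia3 from 975 ± 15.1 to 636 ± 13.7 CPM and Pdia4 from 390.1 ± 13.6 to 287 ± 2.32 CPM. Sil1, the exchange factor of Hspa5, fell from 40.4 ± 1.25 to 20.3 ± 0.972 CPM (-0.99 ± 0.06, adjusted p = 1.9e-09). Of 11 genes of ER stress signalling, 3 were lower and 1 higher, beside 31.8% and 31.2% of all genes. The count higher was 4 with upper quartile scaling and 2 without control replicate 1 or progesterone replicate 3. Ddit3 (CHOP) fell by 2.60 ± 0.05 on the log2 scale (adjusted p = 5.4e-16), and the sensor kinase Ern1 (IRE1) fell (-0.66 ± 0.05, adjusted p = 2.2e-08), as did Ppp1r15a (-0.19 ± 0.05, adjusted p = 0.0021; -0.10 and adjusted p = 0.0836 with upper quartile scaling), while Chac1 rose (0.53 ± 0.12, adjusted p = 0.00088).

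None of the 4 tested genes of the HSF list was called at an adjusted p under 0.05 by edgeR, beside 63% of all genes. Hsf1 was at -0.11 ± 0.05 (adjusted p = 0.084), Hsf2 at 0.01 ± 0.06, Hsf4 at -0.07 ± 0.33 and the HSF1-binding gene Hsbp1 at 0.09 ± 0.04. At an unadjusted p under 0.05, 0 of the 4 passed, and DESeq2 called 0, while Hsbp1 was called higher with upper quartile scaling (0.18, adjusted p = 0.0014). Genes commonly induced through HSF1, other than the 71, were higher in 5 of 12 and lower in 4, beside 31.2% and 31.8% of all genes. Bag3, given above, and the polyubiquitin gene Ubb (-0.61 ± 0.05, adjusted p = 1.7e-08) were among those lower. Tcp1 (0.67 ± 0.05, adjusted p = 1.2e-08) and Cryab and Fkbp4, given above, were among those higher. Of the 5 chaperone genes with a 3-unit element, Hsph1, Dnaja1 and Hspa8 fell and Hspd1 and Hspe1 rose, so genes with this element were called in both directions.

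The exchange factors and partners of Hsp70 on the list, 11 in number, were higher in 2 and lower in 3, beside 31.2% and 31.8% of all genes. Bag3 and Sil1, given above, were among those lower. Bag2 rose (0.57 ± 0.08, adjusted p = 3.5e-05) and so did Stub1 (CHIP), a ubiquitin ligase that marks clients of Hsp70 (0.35 ± 0.06, adjusted p = 8.1e-05). TRiC, the cytosolic chaperonin that folds actin and tubulin, was listed with prefoldin, which hands clients to it, and 9 of the 14 genes were higher and 3 lower, beside 31.2% and 31.8% of all genes. Split after the values were seen, all 8 TRiC subunits rose (log2 fold changes 0.19 to 0.67), among them Tcp1 from 116 ± 6.30 to 184 ± 8.39 CPM (0.67 ± 0.05, adjusted p = 1.2e-08), Cct2 (0.39 ± 0.04, adjusted p = 1.1e-06), Cct6a (0.38 ± 0.04, adjusted p = 8.2e-07) and Cct8 (0.36 ± 0.04, adjusted p = 1.6e-06). Of the 6 prefoldin subunits 1 rose and 3 fell.

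Summed over each family, per-length levels shifted modestly. The 2 chaperonin genes summed to 407, 384 and 356 FPKM in the controls and 528, 527 and 513 FPKM with progesterone, a ratio of means of 1.37. DNAJA genes summed to 312, 308 and 306 against 262, 265 and 268 FPKM, a ratio of 0.858, and Hsp90 genes to 881, 854 and 835 against 797, 816 and 773 FPKM, a ratio of 0.928. Hsp70 genes, the Hsp110 branch included, summed to 1129, 1117 and 1110.2 against 1053, 1099.9 and 1062 FPKM, a ratio of 0.958. The mean of that sum went from 1118.5 to 1071.5 FPKM, while Hsph1 alone went from 81.6 to 35.0 FPKM. A sum without the Hsp110 branch was not taken. In these 4 families the groups did not overlap, whereas the sums of the small Hsp, DNAJB and DNAJC genes overlapped (ratios 0.914, 0.976 and 0.991). The sum of all 71 genes was 4276 ± 101 FPKM in the controls and 4181 ± 103 FPKM with progesterone (SD, n = 3), which differ by less than that spread. The share of the leading gene varied by family, with Hsp90ab1 at 65.2% of the Hsp90 genes and Dnaja1 at 46.9% of the DNAJA genes over all libraries, while Dnajc8 held 11.3% of the DNAJC genes.

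**Figure D4:**
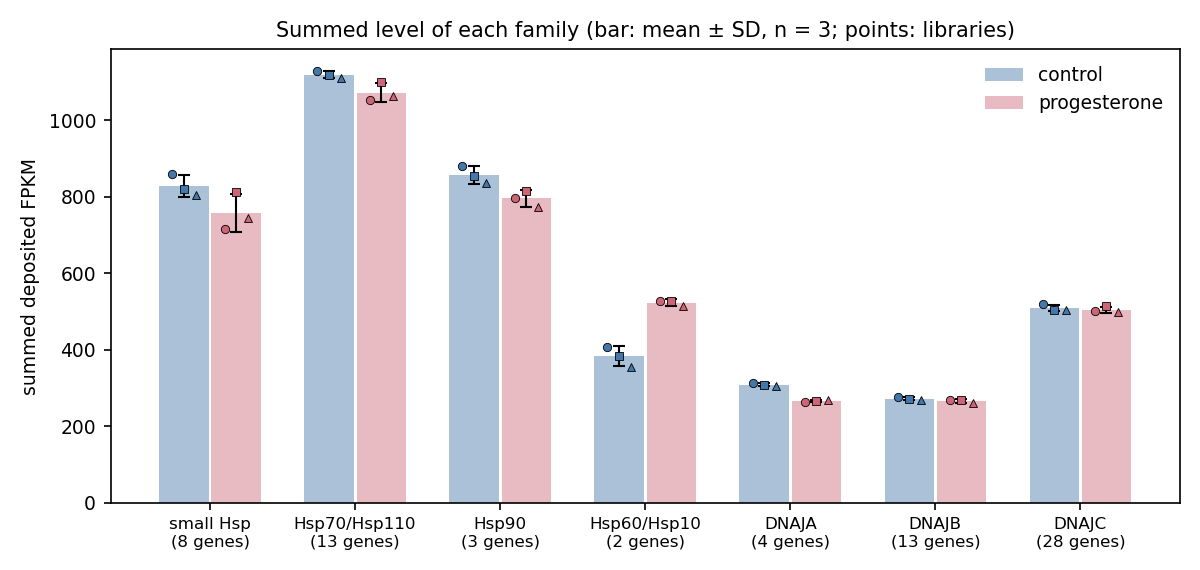
Summed deposited FPKM of each family (y axis, from 0) in control and progesterone libraries, with bars at the mean ± SD of 3 and points for libraries. The chaperonin pair is higher with progesterone (356 to 407 against 513 to 528 FPKM) and the DNAJA genes are lower (306 to 312 against 262 to 268 FPKM).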

How the data were processed

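The authors deposited raw counts per gene and FPKM values (fragments scaled to gene length and library total) for 6 libraries. Bowtie 0.12.2 and the mouse build mm8 are named, per the submitters' processing notes, while the rows carry rat Ensembl IDs. Counter, rat build and strand setting: not given in the sources used here.

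From the deposited counts, edgeR 4.0.16 (R 4.3.3; TMM scaling, filterByExpr, robust quasi-likelihood test, 3 against 3) tested 15075 of 33565 rows, with Benjamini-Hochberg adjustment over all of them. SE is the absolute log2 fold change divided by the square root of F. The procedure was tested on simulated data. Levels are the deposited FPKM or CPM computed from counts and TMM-scaled library size. Libraries held 21156793 to 25376220 counts. The floor of 3 counts covers counting error only, while SE and SD hold the spread between libraries. Alternatives used other scalings, filters, a replicate block, libraries left out, DESeq2 1.42.0 and limma 3.58.1 on log2 of the deposited FPKM plus 1 or 0.1.

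Named genes are every member of the Hsp and DNAJA families with a mean of at least 1 CPM, the up to 6 highest and 6 lowest called DNAJB and DNAJC genes and the 4 most abundant of each class, and the 4 genes of each related list with the smallest adjusted p. The remaining members are accounted for by name, and exceptions are given in the text. The members and lists were chosen with earlier results of these data known. The ER stress element search, the split of TRiC from prefoldin and the removal of overlapping rows were chosen after seeing the data. Compartments were assigned from textbook knowledge.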

Additional observations from a re-analysis of the deposited data

How the results depend on the processing

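Of the 40 called chaperone genes, 32 were called in the same direction under all 15 alternatives. Hspa1l was called in every alternative but the filter of 1 CPM in 3 libraries, which left it and Dnajb13 untested (20 higher and 18 lower of 63 members), and the 7 others (Dnajb4, Hspa2, Dnajc5, Dnajb13, Dnajc16, Hspb2 and Hspa13) lost the call under 2 to 8 of them. The members called higher and lower, 21 and 19, were 25 and 16 with upper quartile scaling, 19 and 16 with DESeq2, and 18 to 21 and 17 to 20 with 1 library left out. Upper quartile scaling moved the median of all genes to 0.10 and the share of higher calls over all genes from 49.6% to 60.1%. Without the 9 tested members whose rows overlap another row with at least 10% of their counts, 16 were higher and 18 lower of 56. With 2 units in place of 3, the heat shock element was found in 16 of 56 promoters (28.6%), against 15.4% of all 27457. The contrast was smaller than with 3 units (8.93% against 0.736%). The replicate block gave 21 higher and 19 lower, and same-numbered libraries deviated together by correlations of only 0.0492, 0.0180 and -0.000936, so the numbers are not taken to pair samples.

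Among members not called, Dnaja2, Dnaja4, Dnajb1, Dnajc1, Dnajc7, Dnajc14, Hspa1b, Hspb6 and Hspb7 were called under some alternative. Changes of sign were seen only in genes not called, and their cause was not tested. With upper quartile scaling the log2 fold change was 0.0756 for Dnajb11, 0.0732 for Dnajb2, 0.0109 for Dnajb9, 0.0502 for Dnajc18, 0.00711 for Dnajc27, 0.0940 for Hspa5, 0.0381 for Hsp90ab1, 0.00152 for Hspb6 and 0.0259 for Hsf4. With library size scaling it was -0.0100 for Dnajc7, -0.00807 for Dnajc24 and -0.00742 for Hsf2, and with no filter -0.00532, -0.00414 and -0.00279. With 1 library left out, it ran from -0.0191 to 0.0586 for Hspb7, -0.0269 to 0.0163 for Hspa5, -0.0629 to 0.199 for Hspa12a, -0.0164 to 0.0272 for Dnajc7, -0.365 to 0.162 for Hsf4, -0.0215 to 0.0399 for Hsf2, -0.131 to 0.333 for Dnajb3, -0.0205 to 0.146 for Dnajc15, -0.0960 to 0.0134 for Dnajc18 and -0.0875 to 0.0782 for Dnajc24.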
